A study of Mus musculus with 4 samples.

Results

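The genes described here encode subunits of chromatin remodelling complexes that use ATP to slide, evict or exchange nucleosomes. They were chosen by name: 39 genes of the BAF, NuRD, INO80 and ISWI families together with Chd1. Of these, 38 had a row of their own among the 22739 named genes of the study, with 1 row each. Pbrm1 shared a row with Glt8d1, which could not be divided, and Dpf3 lay below the expression filter, so 37 members were tested.

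BAF complexes, the mammalian relatives of yeast SWI/SNF, are built around the ATPase BRG1 or BRM and come in canonical (cBAF), polybromo (PBAF) and non-canonical (ncBAF) forms. Mouse embryonic stem (ES) cells are known for a BAF composition of their own, based on BRG1 and BAF155, that sustains self-renewal. NuRD joins a CHD-type remodelling ATPase to histone deacetylases and tempers the expression of pluripotency genes, INO80 and the RUVBL helicases act in the exchange of histone variants and in DNA repair, and the ISWI-type ATPase SNF2H spaces nucleosomes.

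Poly(A) RNA was sequenced in CCE cells, a mouse ES cell line of strain 129SV, cultured on gelatin-coated dishes with LIF and 15% serum. The control cells received shRNA against luciferase (shLuci), and the knockdown cells received shRNA against Tex10 (shTex10), a nuclear protein that the series title connects with super-enhancers. Each group had 2 libraries, called biological replicates by the submitters. All libraries came from this 1 line, both groups carried a hairpin, and neither the number of Tex10 hairpins nor the time under knockdown is stated in the labels. The p-values therefore reflect library-to-library spread within 1 line. Values are FPKM, fragments per kilobase of transcript scaled to the mapped fragments of a library, which allow levels of different genes to be compared. The tables hold no read totals, so the depth behind each value is unknown.

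Tex10 itself stood at 77.3 and 82.1 FPKM in shLuci and at 11.6 and 13.4 FPKM in shTex10, or 15.7% (log2 change -2.58, SE 0.10, limma with adjusted p = 0.000143). All 10 ES cell markers were expressed in all 4 libraries, and 7 of them were lower in shTex10. Their summed level was 5338 and 5746 FPKM in shLuci and 4329 and 4688 FPKM in shTex10. The largest part of it was Dppa5a, which overlapped between groups (2432 and 2999 FPKM against 2467 and 2917 FPKM). Of 7 trophectoderm markers, 5 were tested and all 5 were higher in shTex10. The sum of the list, most of it Krt8, was 151 and 150.1 FPKM in shLuci and 350 and 339 FPKM in shTex10, while Elf5 stayed under 1 FPKM. Cdx2, not tested for its mean under 1 FPKM, measured 0.332 and 0.460 FPKM against 1.49 and 1.43 FPKM. Of 8 fibroblast markers, 4 were tested and 1 was lower, with sums of 37.4 and 28.9 FPKM against 43.4 and 32.1 FPKM. All 7 primitive endoderm markers stayed under 1 FPKM in every library. The part of these other states in the results that follow was not tested. In bulk RNA, fewer cells of a type and less RNA per cell cannot be told apart.

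As deposited, most of the tested remodelling genes were called lower after Tex10 depletion, a majority that some of the other scalings given below did not keep. Of the 37 tested members, 23 fell, 2 rose (Smarca2 and Mta3) and 12 were not called (limma on log2(FPKM + 1), Benjamini-Hochberg adjusted over 11883 genes, threshold 0.05). Smarca2 passed the expression filter only through its shTex10 values, so its call is no support for a rise, and it ended under quantile normalization (limma, adjusted p = 0.0999). Over all genes tested, 31.8% were called lower and 19.8% higher, against 62.2% and 5.41% of the members. The median log2 change, shTex10 minus shLuci, was -0.48 for the members and -0.14 for all genes tested. Both shTex10 libraries lay below both shLuci libraries for 30 members, which holds for 48.1% of all genes tested, and above them for 2, which holds for 28.3%. Summed over the members, the level was 1972 and 1924 FPKM in shLuci and 1429 and 1409 FPKM in shTex10. As a share of the FPKM of all named genes, this was 3.21‰ and 3.04‰ in shLuci and 2.72‰ and 2.62‰ in shTex10, so the members' sum was also lower relative to the other named genes. The changes were modest in size, with Dpf1 (-1.69) and Smarca2 (0.50) at the ends of the range on the log2(FPKM + 1) scale, which understates low genes such as Smarca2.

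**Figure D1:**
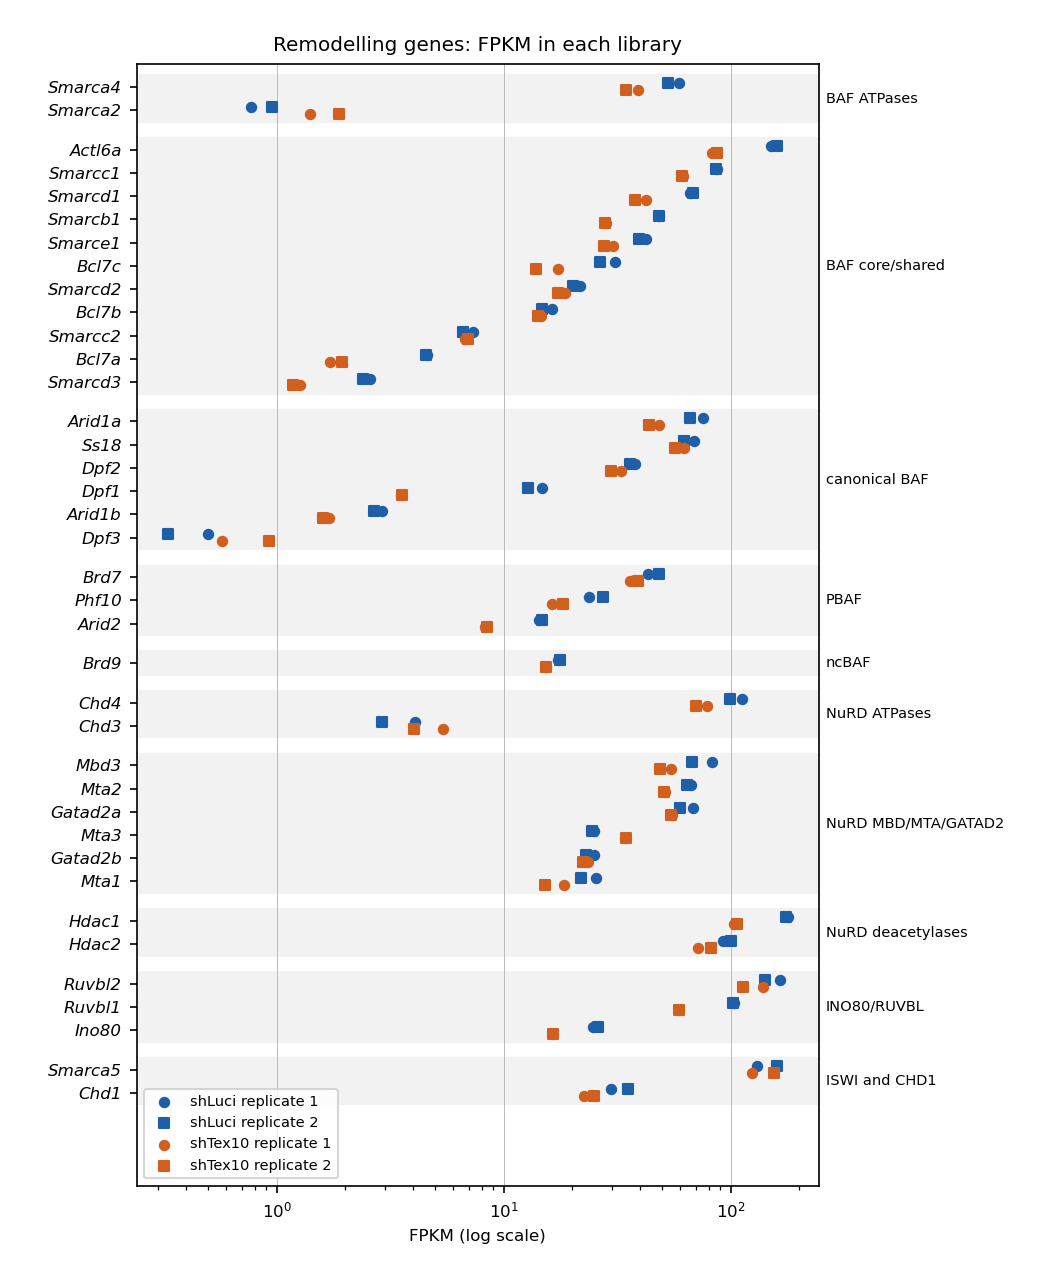
FPKM on a log scale of the 38 remodelling genes with a row of their own, grouped by role and ordered by their mean in shLuci; circles are replicate 1 and squares replicate 2 of shLuci (blue) and shTex10 (orange). Hdac1 is the highest member (179 and 175 FPKM in shLuci) and Dpf3 the lowest, and in most rows the orange points lie left of the blue ones.

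**Figure D2:**
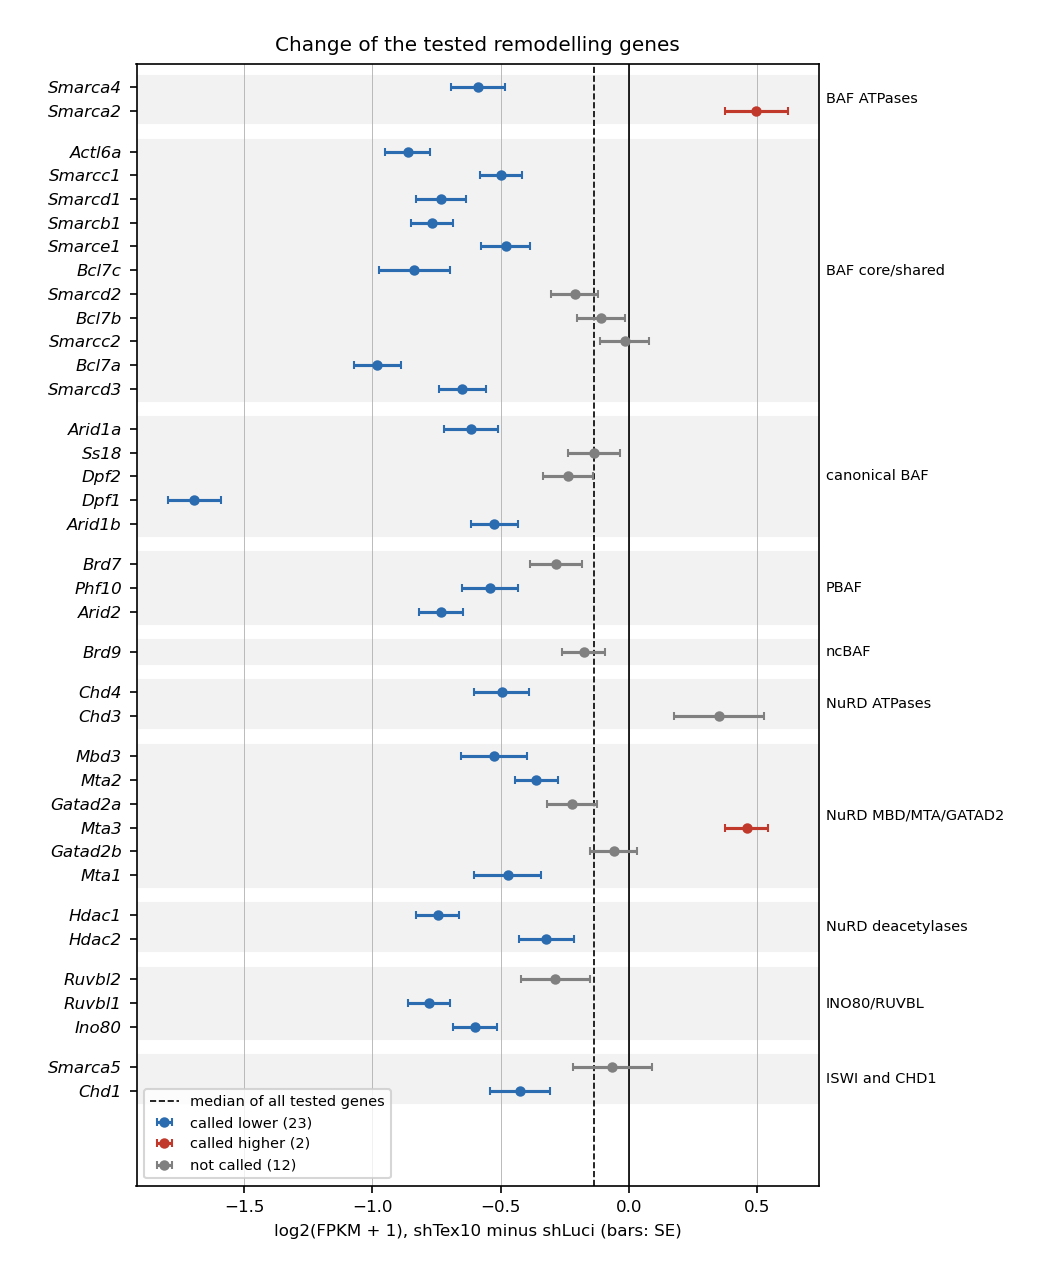
Change of log2(FPKM + 1), shTex10 minus shLuci, with its standard error for the 37 tested members, coloured by the limma call; the dashed line is the median of all genes tested (-0.14). The 23 members called lower lie left of that line, while Smarca2 and Mta3 lie right of 0.

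Start regions are shown for 4 members on which the description turns: Smarca4 and Smarca2, the alternative ATPases of BAF, Actl6a, the most abundant BAF subunit, and Dpf1, the member with the steepest fall. Each is the RefSeq window (build GRCm38.p6, plus strand) from 250 bases before to 50 after the annotated start, 5′ to 3′. Smarca4 is at chr9:21615919-21616218, Smarca2 at chr19:26604910-26605209, Actl6a at chr3:32708296-32708595 and Dpf1 at chr7:29303755-29304054. Capitals mark matches on either strand to the motifs searched: the E-box CACGTG, the GC box GGGCGG, the CCAAT box CCAAT, the ETS core CCGGAAG and the TATA box TATAAA. The palindromic NRF1 site was searched as well.
Smarca4: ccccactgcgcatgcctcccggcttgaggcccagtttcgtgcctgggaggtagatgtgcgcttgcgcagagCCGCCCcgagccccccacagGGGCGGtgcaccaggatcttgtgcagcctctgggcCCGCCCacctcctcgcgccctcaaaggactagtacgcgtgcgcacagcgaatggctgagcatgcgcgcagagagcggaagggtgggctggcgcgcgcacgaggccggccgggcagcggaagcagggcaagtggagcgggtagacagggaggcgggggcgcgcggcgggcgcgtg
Smarca2: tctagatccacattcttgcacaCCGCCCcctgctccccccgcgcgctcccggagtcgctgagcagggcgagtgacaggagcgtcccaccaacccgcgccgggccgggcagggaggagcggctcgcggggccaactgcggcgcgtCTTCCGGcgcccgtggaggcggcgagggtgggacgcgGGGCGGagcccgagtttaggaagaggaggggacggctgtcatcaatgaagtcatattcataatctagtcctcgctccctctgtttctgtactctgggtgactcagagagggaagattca
Actl6a: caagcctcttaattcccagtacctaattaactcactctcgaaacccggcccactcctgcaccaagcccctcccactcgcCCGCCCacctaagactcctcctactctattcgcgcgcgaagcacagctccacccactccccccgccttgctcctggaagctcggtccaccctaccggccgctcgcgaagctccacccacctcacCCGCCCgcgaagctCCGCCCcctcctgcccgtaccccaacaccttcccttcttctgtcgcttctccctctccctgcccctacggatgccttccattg
Dpf1: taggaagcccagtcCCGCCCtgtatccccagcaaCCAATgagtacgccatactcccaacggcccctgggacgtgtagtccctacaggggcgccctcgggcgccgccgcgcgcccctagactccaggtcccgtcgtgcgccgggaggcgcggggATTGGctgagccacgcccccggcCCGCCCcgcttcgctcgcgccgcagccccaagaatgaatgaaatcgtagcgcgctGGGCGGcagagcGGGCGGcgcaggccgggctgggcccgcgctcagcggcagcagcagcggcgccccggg

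These windows held between 3 and 6 matches, mostly GC boxes. Windows were at hand for 31 of the 39 members (36 windows, some of them overlapping alternative starts of 1 gene). A GC box was present in 97.2% of the members' windows, in 63.9% of the 11099 windows of genes tested and in 35.7% of all windows in the table. The members' windows were also richer in G and C, with a median of 67.8% against 61.0% for genes tested. An E-box was present in 8.33% of the members' windows and 10.2% of those of genes tested, a CCAAT box in 33.3% and 38.1%, an ETS core in 16.7% and 17.6%, and a TATA box in 8.33% and 6.88%. The NRF1 site matched 0 of the members' windows and 2.12% of those of genes tested. A match is a string of letters in the window and not a bound site.

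The ATPases of BAF were far apart in level. Smarca4, the gene of BRG1 (mm9 chr9:21420612-21508674), measured 59.0 and 52.8 FPKM in shLuci and 39.1 and 34.7 FPKM in shTex10. The groups did not overlap, and the mean fell to 65.9% (log2 change -0.59, SE 0.11, limma with adjusted p = 0.00684). Smarca2, the gene of BRM (mm9 chr19:26679649-26898397), measured 0.774 and 0.954 FPKM in shLuci and 1.40 and 1.88 FPKM in shTex10 (log2 change 0.50, SE 0.12, adjusted p = 0.0190). Its shTex10 mean was 190% of the shLuci mean, and with a pseudocount of 0.1 in place of 1 the log2 change was 0.84. Its shLuci mean of 0.864 FPKM was below the filter, which it passed only through its shTex10 values, so it had to differ. Smarca4 remained the main ATPase transcript: the ratio of Smarca4 to Smarca2 within a library was 76.2 and 55.4 in shLuci and 27.9 and 18.4 in shTex10.

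Among the core and shared BAF subunits 8 of 11 fell and 3 were not called. Actl6a encodes the actin-related protein BAF53A, which neurons replace by a paralogue. By its shLuci mean it was the second most abundant member, close to Ruvbl2 (156 against 154 FPKM), but it was not second in either shLuci library. It measured 151 and 160.0 FPKM in shLuci and 83.1 and 87.2 FPKM in shTex10, without overlap, and fell to 54.7% (log2 change -0.86, SE 0.09, limma with adjusted p = 0.00108). Smarcb1, the core subunit SNF5, went from 48.5 and 48.2 FPKM to 28.1 and 27.9 FPKM (log2 change -0.77, SE 0.08). In both groups its libraries agreed to within 1 FPKM. Smarcc1, the scaffold subunit BAF155, fell from 87.3 and 85.9 FPKM to 61.4 and 60.8 FPKM (log2 change -0.50, SE 0.08). Its paralogue Smarcc2 (BAF170) was much lower and overlapped between groups, at 7.32 and 6.60 FPKM against 6.77 and 6.96 FPKM. The SMARCC1 form thus stayed the more abundant transcript, at 11.9 and 13.0 times Smarcc2 in shLuci and 9.07 and 8.73 times in shTex10.

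Smarcd genes encode the BAF60 subunits that link BAF to transcription factors. Smarcd1 (BAF60A) fell from 66.2 and 68.2 FPKM to 42.5 and 37.7 FPKM (log2 change -0.73, SE 0.10). Smarcd2 measured 21.6 and 20.3 FPKM in shLuci and 18.5 and 17.3 FPKM in shTex10 and was not called (limma, adjusted p = 0.105). Smarcd3, the form known from heart and muscle, was low, at 2.58 and 2.41 FPKM against 1.27 and 1.18 FPKM, and fell by 0.65 on the log2 scale (SE 0.09). The deposited table gives Smarcd3 the same locus as Chpf2, a row that rose from 2.98 to 4.35 FPKM on average, and no source used here states whether reads were assigned by strand. Smarce1 (BAF57), a DNA-binding HMG subunit, fell from 42.4 and 39.4 FPKM to 30.4 and 27.7 FPKM (log2 change -0.48, SE 0.10).

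The 3 BCL7 genes, whose small proteins are shared by the BAF forms, diverged. Bcl7a had the second largest fall of all members, from 4.59 and 4.57 FPKM to 1.72 and 1.94 FPKM (log2 change -0.98, SE 0.09, limma with adjusted p = 0.000905). Bcl7c fell from 30.9 and 26.5 FPKM to 17.4 and 13.9 FPKM (log2 change -0.84, SE 0.14). Bcl7b, at 16.3 and 14.8 FPKM against 14.5 and 14.1 FPKM, was not called. Bcl7c was 1.89 and 1.80 times as abundant as Bcl7b in shLuci and 1.20 and 0.986 times in shTex10.

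Subunits of canonical BAF included the member with the largest change. Dpf1 encodes BAF45B, a PHD finger subunit best known from neurons, and lies at mm9 chr7:30089022-30102640. It measured 14.7 and 12.8 FPKM in shLuci and 3.53 and 3.58 FPKM in shTex10. The shTex10 values were close together and far below both controls, at 25.8% of the shLuci mean (log2 change -1.69, SE 0.10, limma with adjusted p = 0.000281). Its broadly expressed paralogue Dpf2 (BAF45D) measured 37.8 and 36.0 FPKM in shLuci and 32.9 and 29.6 FPKM in shTex10 and was not called (adjusted p = 0.0862). Dpf2 was 2.57 and 2.82 times as abundant as Dpf1 in shLuci and 9.32 and 8.27 times in shTex10. Dpf3, known from heart and muscle, was under 1 FPKM in every library (0.497, 0.330, 0.571 and 0.925 FPKM in the same order) and was not tested.

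Neural markers gave the following values beside the fall of Dpf1. Of 9 listed, 7 were under 1 FPKM in all libraries, and the 2 tested, Pax6 and Tubb3, were both lower in shTex10. Pax6 passed the filter only through its shLuci values and had to differ. It measured 5.80 and 6.57 FPKM in shLuci against 0.635 and 0.710 FPKM in shTex10, and the sum of the list, most of it Tubb3, was 98.8 and 83.1 FPKM against 38.2 and 31.0 FPKM. Their part in the fall of Dpf1 was not tested. Of 8 heart and muscle markers, 7 stayed under 1 FPKM throughout. The other, Des, rose from 4.27 and 4.36 FPKM to 5.54 and 5.44 FPKM (limma, adjusted p = 0.0379).

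Arid1a, which encodes the large DNA-binding subunit BAF250A of canonical BAF, fell from 75.4 and 66.4 FPKM to 48.1 and 43.7 FPKM (log2 change -0.62, SE 0.11). Its alternative Arid1b was far lower and fell in parallel, from 2.92 and 2.69 FPKM to 1.69 and 1.59 FPKM (log2 change -0.52, SE 0.09). The ratio of Arid1a to Arid1b was 25.8 and 24.7 in shLuci and 28.4 and 27.4 in shTex10, slightly higher after depletion. Ss18, a subunit of canonical and non-canonical BAF, overlapped between groups, at 69.1 and 62.1 FPKM against 62.4 and 56.7 FPKM, and was not called (adjusted p = 0.301). Transcripts of the genes listed under BAF changed unequally. As an example, Actl6a was 2.19 and 2.58 times as abundant as Ss18 in shLuci and 1.33 and 1.54 times in shTex10.

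Of the PBAF subunits, 2 of 3 tested fell. Arid2 (BAF200), which defines PBAF, fell from 14.4 and 14.7 FPKM to 8.26 and 8.45 FPKM (log2 change -0.73, SE 0.09, limma with adjusted p = 0.00179). Phf10 (BAF45A), a PHD finger subunit of PBAF, fell from 23.8 and 27.3 FPKM to 16.3 and 18.2 FPKM (log2 change -0.54, SE 0.11); 2 other named rows share its locus in the table. Brd7, a bromodomain subunit, measured 43.1 and 48.5 FPKM in shLuci and 35.8 and 39.04 FPKM in shTex10 and narrowly missed the threshold (adjusted p = 0.0632). The joint row of Glt8d1 and Pbrm1 overlapped between groups, at 20.3 and 24.1 FPKM against 19.8 and 21.9 FPKM. Brd9, the bromodomain subunit of ncBAF, was slightly lower without overlap, at 17.3 and 17.6 FPKM against 15.4 and 15.3 FPKM, and was not called (adjusted p = 0.134).

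In NuRD, 6 of 10 members fell, 1 rose and 3 were not called, where 31.8% of all genes tested were lower and 19.8% higher. This count depended on scaling. Of the 6, Hdac1 alone stayed called both under quantile normalization and with an equal sum over named genes. The ATPase Chd4, the predominant NuRD remodeller in ES cells, measured 112 and 98.9 FPKM in shLuci and 78.5 and 70.6 FPKM in shTex10 (log2 change -0.49, SE 0.11, limma with adjusted p = 0.0123). Its paralogue Chd3 was low and scattered, at 4.05 and 2.90 FPKM against 5.40 and 4.02 FPKM, and was not called (adjusted p = 0.144). Chd4 was 27.7 and 34.1 times as abundant as Chd3 in shLuci and 14.5 and 17.6 times in shTex10. Mbd3, which the complex needs for assembly and which restrains pluripotency genes, fell from 83.1 and 67.7 FPKM to 54.8 and 49.0 FPKM (log2 change -0.53, SE 0.13).

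The MTA scaffold genes split. Mta1 fell from 25.5 and 21.8 FPKM to 18.4 and 15.2 FPKM (log2 change -0.47, SE 0.13) and Mta2 from 67.1 and 64.5 FPKM to 51.5 and 50.6 FPKM (log2 change -0.36, SE 0.08). Mta3 (mm9 chr17:84105502-84214245) rose from 24.9 and 24.5 FPKM to 34.1 and 34.6 FPKM (log2 change 0.46, SE 0.08, limma with adjusted p = 0.00687). Replicates of Mta3 agreed within 1 FPKM and the groups did not overlap. Mta1 and Mta3 were about equal in shLuci, with ratios of 1.03 and 0.889, while in shTex10 Mta1 was at 0.540 and 0.439 times Mta3. Mta2 remained the highest of the family in all 4 libraries, at 2.69 and 2.63 times Mta3 in shLuci and 1.51 and 1.46 times in shTex10.

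Gatad2a and Gatad2b encode the p66 subunits that join the deacetylase and remodelling parts of NuRD. Neither was called: Gatad2a measured 68.3 and 59.8 FPKM in shLuci and 55.0 and 54.4 FPKM in shTex10, and Gatad2b 24.9 and 23.1 FPKM against 23.5 and 22.4 FPKM. Of the deacetylases, which NuRD shares with other corepressors, Hdac1 was the highest member in shLuci. It fell from 179 and 175 FPKM to 104 and 107 FPKM, without overlap (log2 change -0.75, SE 0.08, limma with adjusted p = 0.00146). Hdac2 fell less, from 92.3 and 100.2 FPKM to 71.7 and 82.3 FPKM (log2 change -0.32, SE 0.11), and was the member closest to the threshold among those called (adjusted p = 0.0483). The ratio of Hdac1 to Hdac2 was 1.94 and 1.75 in shLuci and 1.45 and 1.30 in shTex10.

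Ino80, the ATPase of its complex, fell from 24.8 and 26.2 FPKM to 16.5 and 16.4 FPKM (log2 change -0.60, SE 0.09). Ruvbl1, an AAA+ helicase shared by INO80, SRCAP and TIP60 complexes, fell from 103 and 102 FPKM to 59.3 FPKM in both shTex10 libraries (log2 change -0.78, SE 0.08, limma with adjusted p = 0.00122). Its partner Ruvbl2, with which it forms mixed rings, varied more between replicates, at 165 and 142 FPKM against 139 and 113 FPKM, and was not called (adjusted p = 0.13). Within libraries Ruvbl1 was at 0.623 and 0.719 times Ruvbl2 in shLuci and at 0.426 and 0.524 times in shTex10.

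Smarca5, the ISWI ATPase SNF2H, was among the most abundant members and overlapped between groups, at 131 and 161 FPKM in shLuci and 124 and 155 FPKM in shTex10 (log2 change -0.06, SE 0.15, limma with adjusted p = 0.746). In both groups replicate 2 was the higher one. The table also holds a pseudogene, Smarca5-ps, in 9 rows whose sum was 33.9 and 43.2 FPKM in shLuci and 81.2 and 91.9 FPKM in shTex10. It was looked up after its values were seen, and reads shared between it and Smarca5 would make the value of either uncertain. Chd1, a remodeller linked to open chromatin in ES cells, fell from 29.7 and 35.1 FPKM to 22.6 and 25.1 FPKM (log2 change -0.42, SE 0.12, adjusted p = 0.0273). Relative to Smarca4, Smarca5 was 2.21 and 3.04 times as abundant in shLuci and 3.17 and 4.47 times in shTex10.

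Ratios of FPKM within a library do not change when a library is multiplied by 1 factor, although quantile normalization can change them. In all, 21 such pairs of members were compared, chosen after their values were seen. No test was applied: with 2 libraries a group, the smallest two-sided p that exact permutation allows is 0.33. By the ratio of the group means, the pairs of Dpf2 with Dpf1, Smarca4 with Smarca2, Bcl7b with Bcl7a and Mta1 with Mta3 differed most between groups. Smarca2 was low and passed the expression filter only through its shTex10 values, so its pair is no support for a difference. Of the 21 pairs, 3 overlapped between groups: Mta2 with Mta1, Arid1a with Arid2 and Brd9 with Brd7. The same count was not made over pairs of other genes, so it does not set the members apart. Lack of overlap was common among single genes, with 48.1% of all tested lower and 28.3% higher in both shTex10 libraries.

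**Figure D3:**
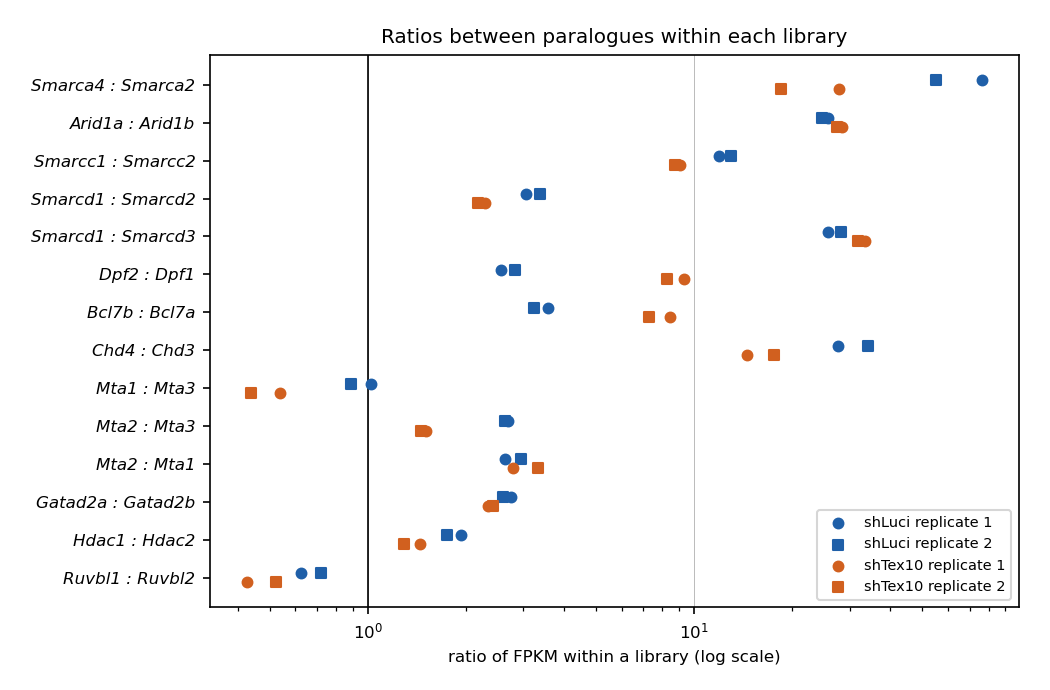
Ratios of FPKM between paralogues or partners within each library, on a log scale, for 14 of the pairs; circles are replicate 1 and squares replicate 2 of shLuci (blue) and shTex10 (orange), and the line marks equal levels. Dpf2 to Dpf1 moves from 2.57 and 2.82 in shLuci to 9.32 and 8.27 in shTex10, while Mta1 to Mta3 moves from near 1 to 0.540 and 0.439.

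The absolute changes of the members did depend on scaling. Among all calls, 38.3% were upward as deposited and 62.9% when libraries were rescaled to an equal sum over named genes, which moved the median of all genes from -0.14 to 0.06. With that scaling 15 members were lower and 2 higher, where 16.0% of all genes were lower and 27.2% higher. Under quantile normalization 16 members were lower and 1 higher, against 24.5% and 20.2% of all genes. Both scalings ended the calls of Smarce1, Chd4, Mbd3, Mta1, Mta2, Hdac2 and Chd1; the named-gene scaling also ended that of Smarca4 (limma, adjusted p = 0.0526), and quantile normalization that of Smarca2. An equal sum over all rows, unnamed ones included, raised the median standard error of the members from 0.10 to 0.44. Unnamed rows held 56.3% and 71.6% of the summed FPKM in shLuci and 70.8% and 68.8% in shTex10. This scaling therefore multiplied the 2 shLuci libraries by unlike factors. It left Dpf1 as the single member called, where 1.99% of all genes were lower and 5.51% higher.

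Relative to the median of all genes, the members' median log2 change was -0.34 as deposited, -0.32 with the named-gene scaling, -0.20 under quantile normalization and -0.34 with the all-row scaling. Among genes with a mean of at least 5 FPKM, 36.5% were lower and 15.1% higher, and 19 of 32 members were lower and 1 higher. Apart from the all-row scaling, 16 members kept their call in all 15 other alternatives, or in those that tested them. The same count was not made over all genes, so it does not set the members apart. Lower throughout were Smarcb1, Smarcc1, Smarcd1, Smarcd3, Actl6a, Bcl7a, Bcl7c, Arid1a, Arid1b, Dpf1, Arid2, Phf10, Hdac1, Ino80 and Ruvbl1, and Mta3 was higher. Other calls ended in further settings that kept all 4 libraries. Hdac2 missed the threshold without the expression filter, with a mean of at least 5 FPKM, with median scaling and with other eBayes options. Mta1 missed it without the filter, and Chd1 with median scaling. Leaving out single libraries ended calls as well. Each such fit leaves 1 sample in a group and assumes that it varies like the other group. Mta2 missed the threshold without any 1 of the 4 libraries (limma, adjusted p from 0.0525 to 0.0998), Hdac2 without either shLuci library or shTex10 replicate 1 (0.0584 to 0.284), Mta1 without shLuci replicate 1 or shTex10 replicate 2 (0.0769 and 0.0853), Chd1 without shLuci replicate 2 or shTex10 replicate 1 (0.137 and 0.0753) and Mbd3 without shLuci replicate 1 (0.0592). Chd3 passed as higher without shLuci replicate 1 or shTex10 replicate 2 (0.00705 and 0.00350), and Ruvbl2 as lower without shTex10 replicate 1 (0.0260).

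**Figure D4:**
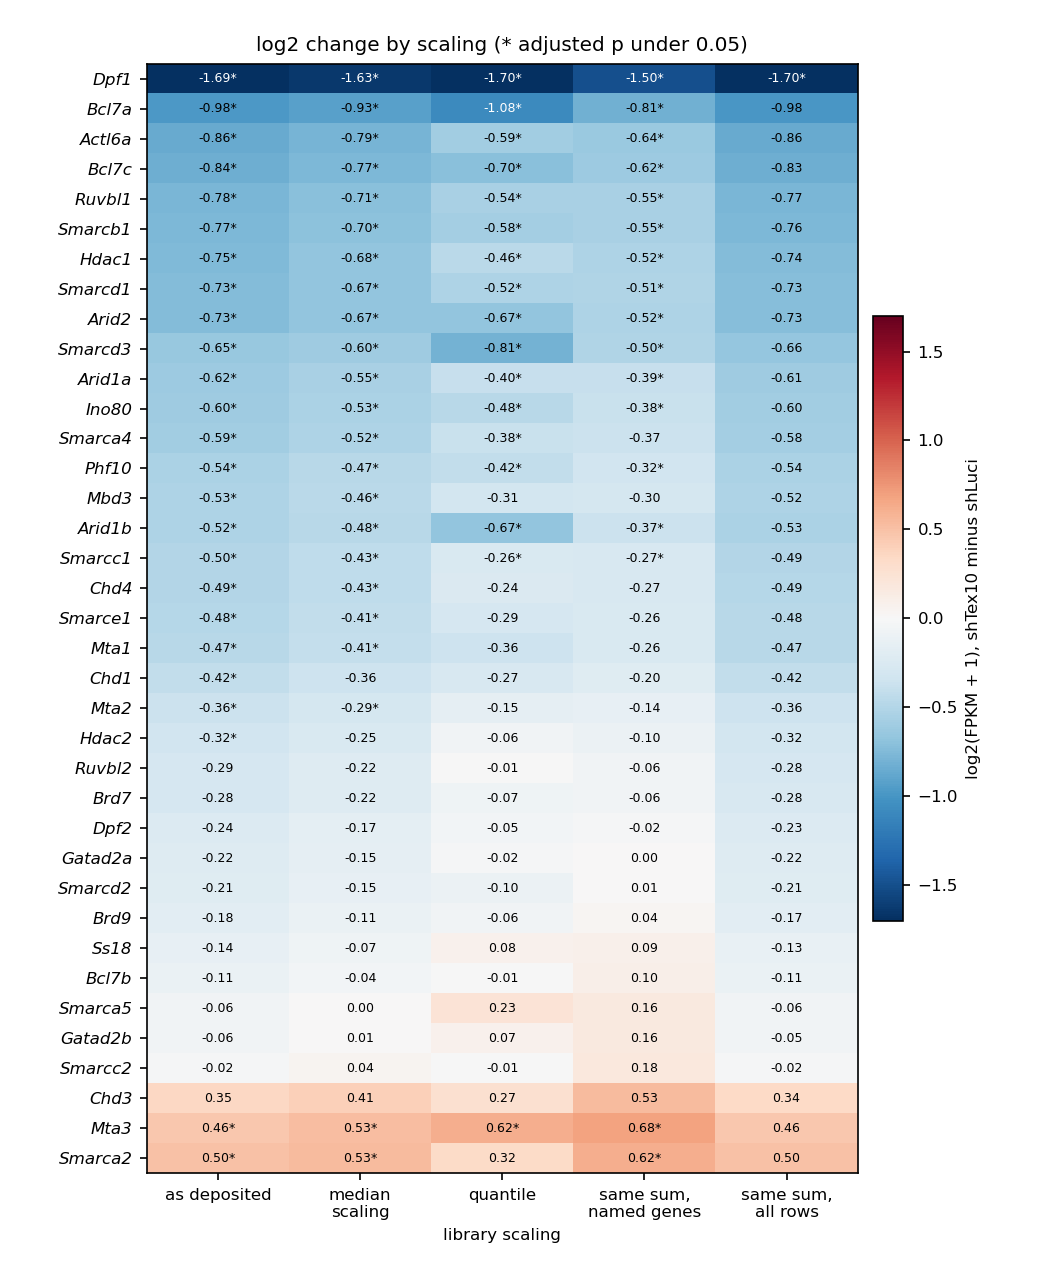
Log2 change (shTex10 minus shLuci, log2(FPKM + 1)) of the 37 tested members under 5 scalings of the libraries, ordered by the change as deposited; blue is lower, red is higher, and a star marks an adjusted p under 0.05. Dpf1 is called in each column, Mta3 in all but the all-row scaling, and members near 0 such as Smarca5 and Smarcc2 change sign between columns.

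Other remodelling genes, from a list of 62 further subunits and relatives, were mostly not called. Of 58 tested, 17 fell (29.3%, against 31.8% of all genes), 3 rose (5.17%, against 19.8%) and 38 were not called, with a median log2 change of -0.19. Fewer were called lower without shLuci replicate 2, as was so over all genes, in a fit that leaves 1 sample in that group. By complex, 5 of 10 further ISWI genes fell, 3 of 11 INO80 genes, 1 of 13 SRCAP and TIP60 genes, 4 of 9 other SNF2 genes and 2 of 6 CHD genes. As deposited, no gene of these 5 groups rose. With an equal sum over named genes, 9 of the 58 rose and 8 fell, where 27.2% of all genes were higher and 16.0% lower.

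Chd1l, a remodeller recruited by poly(ADP-ribose), had the largest fall of the list, from 18.3 and 17.7 FPKM to 9.45 FPKM in both shTex10 libraries (log2 change -0.86, SE 0.09, limma with adjusted p = 0.00105). Bicral, a subunit of ncBAF listed as Gltscr1l, fell from 28.6 and 28.9 FPKM to 17.4 and 17.7 FPKM. Baz1b, a partner of SNF2H, fell from 42.1 and 41.6 FPKM to 26.6 and 27.2 FPKM, and Chd7 from 7.95 and 8.20 FPKM to 4.93 and 4.97 FPKM. Bptf, the large subunit of the ISWI complex NURF, fell by 0.51 (SE 0.09), while Smarca1, the other ISWI ATPase, missed the threshold at 5.47 and 7.21 FPKM against 3.70 and 4.81 FPKM (adjusted p = 0.0514). Hells, a remodeller needed for DNA methylation, fell from 169 and 212 FPKM to 97.9 and 125 FPKM. Atrx was not called (log2 change 0.12, adjusted p = 0.495).

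Further NuRD genes included the 3 that rose. Mbd2, the alternative of Mbd3 in NuRD, rose from 9.94 and 9.29 FPKM to 16.7 and 15.5 FPKM (log2 change 0.69, SE 0.09, limma with adjusted p = 0.00275). Zmynd8, a chromatin reader that binds NuRD, rose from 29.4 and 30.1 FPKM to 40.9 and 41.8 FPKM, and Chd5, a neuronal CHD ATPase, from 1.60 and 1.14 FPKM to 2.56 and 2.11 FPKM. Of the histone-binding subunits, Rbbp4 fell from 277 and 294 FPKM to 155 and 179 FPKM, while Rbbp7 overlapped between groups at 134 and 152 FPKM against 142 and 166 FPKM. Actl6b, the neuronal counterpart of Actl6a, was listed at 0 in 3 libraries and at 0.0220 FPKM in shTex10 replicate 2. Ep400 shares a row with Pus1, which fell from 57.7 and 51.8 FPKM to 41.8 and 40.7 FPKM, and Srcap was not analysed here.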

How the data were processed

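RNA was measured as poly(A)-selected TruSeq libraries read as 100-bp single ends, 2 per group. The deposited values are FPKM, computed by the authors for each library on its own, per the file headers. Mouse build mm9 and the tools Cufflinks 2.1.1, TopHat2 2.0.10 and Bowtie2 2.1.0 are listed in the submitters' processing notes. No source used here states the annotation or whether strand was used. Rows without a gene name (56.3% to 71.6% of summed FPKM) were left out, and rows sharing a name were summed. FPKM keeps no read totals, so depth is unknown, and a few abundant features can shift all other values of a library.

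Genes with a mean of at least 1 FPKM (11883) were tested as log2(FPKM + 1), with a pseudocount of 1, by limma 3.58.1 in R 4.3.3 (eBayes with trend, no replicate block), with Benjamini-Hochberg adjustment over all of them. Fold changes on this scale understate those of low genes. The code was tested on simulated data.

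The members, gene lists and tests were chosen with earlier results of these data known. Genes were named by a rule: Tex10, all members, up to 5 other remodelling genes with the smallest p in each direction among those called (3 were called higher), and 10 others of that list whatever their values. Markers are given mainly as counts and sums. Alternatives were other pseudocounts (0.1 and 0.5), filters, scalings, eBayes options, a replicate block, the highest row per name and leaving out each library. Promoter windows are from RefSeq, build GRCm38.p6, matched by symbol, and no coordinates were converted between builds.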

Additional observations from a re-analysis of the deposited data

How the results depend on the processing

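Counts of calls depended on the scaling and on the replicate block given below. Over all genes they moved most with an equal sum over all rows. With an equal sum over named genes 1906 genes were lower, with 15 members lower, and 9 other remodelling genes were higher and 8 lower. With an equal sum over all rows 655 genes were higher and 237 lower, 0 members were higher and 1 lower, and 0 other remodelling genes were higher and 0 lower. Quantile normalization left 1 member higher and 9 other remodelling genes lower, where 20.2% of all genes were higher and 24.5% lower. With a mean of at least 5 FPKM, which tests fewer genes, 1292 genes and 1 member were higher. Leaving out single libraries gave 11 to 14 other remodelling genes lower and kept between 19 and 21 members lower; Hdac2, Mta1, Mta2, Mbd3 and Chd1 each lost their call without at least 1 library. The cause was not tested.

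Only members that were not called changed sign. Median scaling gave 0.0438 for Smarcc2, 0.00812 for Gatad2b and 0.00367 for Smarca5, and quantile normalization gave 0.0758 for Ss18, 0.0683 for Gatad2b and 0.23 for Smarca5. The named-gene sum gave 0.18 for Smarcc2, 0.00567 for Smarcd2, 0.10 for Bcl7b, 0.0874 for Ss18, 0.0383 for Brd9, 0.00282 for Gatad2a and 0.16 for both Gatad2b and Smarca5. Without single libraries Smarcc2 ran from -0.0816 to 0.0485 and Smarca5 from -0.226 to 0.0965.

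Same-numbered libraries deviated together (r = 0.33 across 11883 genes), but the labels tie the numbers to no shared culture or day, so they were not treated as pairs. With the replicate block 5709 genes were lower (48% of those tested) and 3210 higher (27%). Of the members, 30 were lower and 3 higher, and 7 other remodelling genes were higher and 35 lower. Smarcd2, Dpf2, Ss18, Brd7, Brd9, Gatad2a and Ruvbl2 then passed as lower and Chd3 as higher. Unknown depth limits what can be said of Smarca2 and Dpf3, the lowest members.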
